A study of Mus musculus with 2 samples.

Results

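Neat1 is the long non-coding RNA on which paraspeckles are built, and it was measured here with 8 genes of paraspeckle proteins in nuclear RNA of mouse macrophages. The members were Neat1, Sfpq, Nono, Pspc1, Rbm14, Tardbp, Matr3, Cpsf6 and Nudt21, chosen by gene symbol, and all 9 were found among 55536 mouse genes. The cells were bone-marrow-derived macrophages of the C57BL/6J strain, with no genetic alteration named in the labels. They received Lipid A, the part of bacterial lipopolysaccharide that activates TLR4, at 100 ng/ml for 12 h. After 12 h without it they received Lipid A at 100 ng/ml again and were collected 120 min later. RNA of the nuclear fraction, which another label calls nucleoplasmic, was depleted of ribosomal RNA and sequenced in 2 biological replicates that share 1 donor label. Every library belongs to this 1 group, so levels and isoforms are described and no condition was compared. Age and sex were not collected.

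Replicate 1, made from 1 µg of RNA, had 28450276 expected counts on genes after rounding. Replicate 2, made from 500 ng, had 16940198. Input amount and replicate cannot be told apart. Mitochondrial genes took 4.15% and 10.3% of the counts. RNAs of annotation types grouped here as short structural took 72.9% and 53.9% of the TPM (a share of transcripts that is corrected for length). The group includes small nuclear, small nucleolar, micro-, miscellaneous and ribosomal RNA, with mitochondrial rRNA and tRNA among them. All 6 macrophage markers were at 1 TPM or more in both libraries, with sums of 2289 and 2424 TPM. None of the 14 markers of T cells, B cells, neutrophils, fibroblasts and endothelium was at 1 TPM in both libraries of the gene tables, and their highest level was 0.55 TPM for the endothelial marker Pecam1. The second transcript table listed Pecam1 at 1.45 and 14.4 TPM and the T cell marker Cd3d at 1.00 and 5.57 TPM.

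Paraspeckles are nuclear bodies that form where Neat1 is transcribed. The gene makes a short RNA, cleaved and polyadenylated near the start, and a long RNA that reads through this site and carries the domains that assemble the body. Sfpq, Nono and Pspc1 belong to the DBHS family of RNA-binding proteins that coat the long RNA. Cpsf6 and Nudt21 form cleavage factor I, which binds UGUA and promotes polyadenylation of the short RNA. The long RNA has no poly(A) tail: RNase P cuts it before a tRNA-like structure, and a triple helix protects its end. In macrophages, paraspeckle proteins and Neat1 are known from work on inflammatory genes and nucleic acid sensing.

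Neat1 (ENSMUSG00000092274.3) lies on the minus strand of chromosome 19, from 5824708 to 5845478 in mm10, and GENCODE M21 lists 4 transcripts of it. Neat1-201, the long transcript, is 1 exon of 20771 nt over the whole gene. Neat1-202, the short transcript, has 2 exons and 3004 nt within the first 3172 bases. The remaining 17599 bases, 84.7% of the long transcript, lie beyond the end of the short one. Reads from the shared start fit both transcripts, so their division rests on the authors' estimation.

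The sequences below come from the GENCODE M21 transcripts with mm10 coordinates and read 5′ to 3′ on the RNA strand. The first pair shows the site that separates the short from the long RNA, and the capitals in it mark AATAAA, the main polyadenylation hexamer, and TGTA, the DNA form of UGUA.
end of Neat1-202, chr19:5842307-5842426: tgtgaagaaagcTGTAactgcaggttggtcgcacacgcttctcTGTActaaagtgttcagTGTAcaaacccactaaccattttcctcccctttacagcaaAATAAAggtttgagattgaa
next 60 bases of Neat1-201, chr19:5842247-5842306: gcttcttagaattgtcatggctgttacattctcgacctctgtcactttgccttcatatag
The hexamer began 20 bases before the annotated end, and 3 TGTA words began 108, 77 and 60 bases before it. The following 60 bases held neither word. Among 67572 annotated protein-coding and lincRNA transcripts, incomplete ends included, 41.8% had AATAAA in their last 120 bases, 47.0% had TGTA, 5.20% had 3 or more TGTA, and 2.96% had AATAAA together with 3 or more TGTA. The last share was 0.994% of the 8956 lincRNA transcripts, the class of Neat1, and 3.26% of the 58616 protein-coding ones. The whole long transcript held 135 TGTA and 6 AATAAA, counted on the RNA strand only. The marked words do not overlap each other.

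The far end of the long transcript differs in kind from the end of the short one. Here the capitals mark a pair of 10-base words that are reverse complements of each other, of which the last closes the transcript.
end of Neat1-201, chr19:5824708-5824817: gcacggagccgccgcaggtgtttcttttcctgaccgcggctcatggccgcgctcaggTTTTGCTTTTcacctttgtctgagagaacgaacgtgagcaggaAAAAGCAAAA
The printed stretch held no AATAAA. The long transcript also carried a run of alternating T and G, shown because Tardbp encodes TDP-43, a protein known to bind UG repeats.
longest TG run of Neat1-201, chr19:5826007-5826071: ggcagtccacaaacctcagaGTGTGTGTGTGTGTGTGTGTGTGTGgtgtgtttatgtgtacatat
The run of 25 bases (capitals) lay in the part that only the long transcript has, 1344 bases before its end. Such a run of at least 24 bases, starting with T or with G, was present in 78 of 635 annotated transcripts of 10000 nt or more (12.3%) and in 0.103% of 88075 windows of 100 bases in them. These matches describe the sequence and do not show that a protein was bound.

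By TPM nearly all Neat1 was assigned to the short transcript. Neat1-202 had 443 TPM in replicate 1 and 445 TPM in replicate 2, which was 88.8% and 91.1% of the gene. Neat1-201 had 33.7 and 31.1 TPM, or 6.75% and 6.36%, with a mean share of 6.56% ± 0.277 (SD, n = 2). The short transcript thus stood 13.2 and 14.3 times above the long one. The authors' second transcript table, made directly from the reads, gave the long transcript 6.07% and 5.84% and ratios of 14.8 and 15.7. Both tables and both libraries put the short transcript above the long one by more than 10-fold, and the ranges of the 2 forms did not overlap.

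Counted as reads instead of molecules, the long transcript weighed more. It took 34126 of the gene's expected counts in replicate 1 and 13406 in replicate 2, 35.8% and 33.8%. Counts, unlike TPM, are not corrected for length. The short transcript took 60501 and 26019, which was 1.77 and 1.94 times the long one. The 2 short spliced transcripts were minor: Neat1-203, which lies within the first 1798 bases, had 19.6 and 11.1 TPM, and Neat1-204, which lies near the far end from base 17467 to base 20164, had 2.32 and 1.41 TPM. The deposited credibility interval of the long transcript was 32.7 to 33.5 TPM in replicate 1 and 29.0 to 30.1 TPM in replicate 2. It surrounds a posterior mean and in both libraries lay below the TPM itself.

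**Figure D1:**
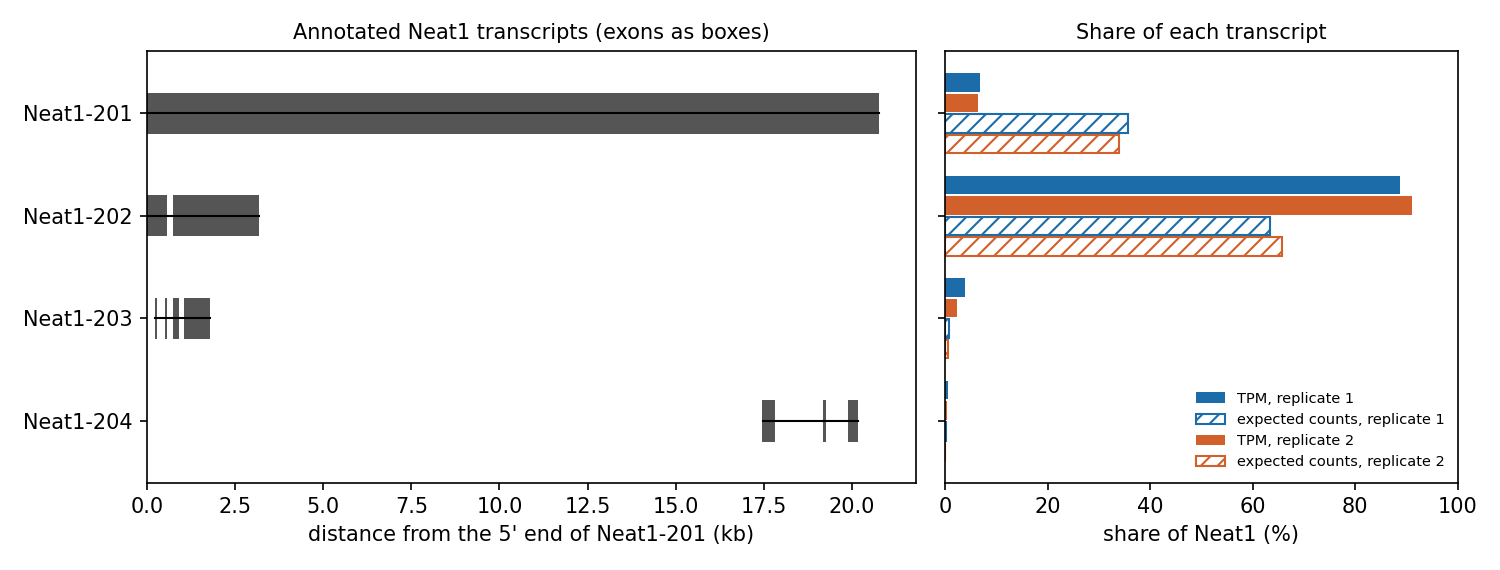
Left, the 4 annotated Neat1 transcripts, with exons as boxes, by distance in kb from the 5′ end of Neat1-201. Right, each transcript's share of the gene in percent, by TPM (filled) and by expected counts (hatched), in replicate 1 (blue) and replicate 2 (orange). Neat1-201 has 6.75% and 6.36% by TPM but 35.8% and 33.8% by counts.

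Neat1-202 is annotated with an intron of 166 bases that Neat1-201 keeps. It is shown because an unspliced read of a short RNA inside it can only be assigned to the long transcript. The capitals mark the first and last 2 bases.
intron of Neat1-202, chr19:5844759-5844924: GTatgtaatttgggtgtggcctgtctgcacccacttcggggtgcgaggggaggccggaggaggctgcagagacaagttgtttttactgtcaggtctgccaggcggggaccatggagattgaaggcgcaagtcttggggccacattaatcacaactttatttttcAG
The tables give 1 value per transcript and no coverage along it, so reads in this intron and reads beyond the short end could not be counted apart. The long share above is therefore the value assigned by the authors' tools.

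As a gene, Neat1 was among the most abundant RNAs of the nuclear fraction. Of the gene counts, 0.335% were of Neat1 in replicate 1, with a 95% Wilson interval from 0.333% to 0.338%. The share was 0.234% in replicate 2, from 0.232% to 0.236%. By counts it ranked 24 and 35 of 55536 genes, and by TPM, which is corrected for length, 89 and 82. Of 22028 protein-coding genes, 39 and 42 stood above it by TPM. Among 13374 long non-coding genes it ranked 5 and 4 by TPM, 3 and 4 by counts, and 7 and 11 in the second transcript table. Malat1, the nuclear speckle RNA, whose gene neighbours Neat1, stood 20.9 and 49.3 times higher by TPM. Apart from Malat1, 9.99% and 5.39% of the counts on long non-coding genes were of Neat1. By mean TPM the genes next above it were Gm26917 (843 ± 35.3, SD, n = 2) and Gm42418 (517 ± 107), and those next below were Mir155hg, the host of miR-155 (286 ± 121), and Gm20559 (241 ± 70.2). The range of Gm42418, 441 to 592 TPM, contained both values of Neat1, and the range of Mir155hg, 200 to 372 TPM, lay below them.

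Whether the replicates held like amounts of Neat1 depended on the scale. The deposited TPM was 499 in replicate 1 and 489 in replicate 2. Without the mitochondrial RNAs and those grouped as short structural, whose share differed between the libraries, the same values came to 2084 and 1517. Rmrp, of 281 nt, is typed as lincRNA and was therefore kept, with 27043 and 2636 TPM before rescaling. In the second transcript table the values of Neat1 were 217 and 301 TPM. The counts, 95450 and 39629, gave a log2 ratio of replicate 2 over replicate 1 of −0.69 relative to the median gene (95% exact interval −0.71 to −0.68) after TMM scaling. The near equality in TPM is thus not seen on the other 3 scales, and replicate 2 was the lower library relative to the median gene on every scale. In bulk RNA, fewer cells with an RNA and less of it per cell cannot be told apart.

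The 8 protein genes were all at 1 TPM or more in both libraries, against 39.6% of 22028 protein-coding genes. Tardbp, which encodes the splicing regulator TDP-43, had 56.5 and 89.7 TPM (mean 73.1 ± 23.5, SD, n = 2). Sfpq had 41.6 and 74.4 TPM, Matr3, a nuclear matrix protein that binds RNA, 33.4 and 78.4 TPM, and Nono 37.2 and 49.4 TPM. Cpsf6 had 21.1 and 48.9 TPM. These 5 overlapped from each to the next in the order, and Sfpq and Matr3 as well as Matr3 and Nono changed places between the libraries. Pspc1 followed with 8.42 and 20.4 TPM, Rbm14, which holds paraspeckle subunits together, with 4.26 and 7.24 TPM, and Nudt21 with 1.17 and 2.11 TPM. The steps from Cpsf6 to Pspc1, to Rbm14 and to Nudt21 exceeded the range of the replicates in the gene tables. In the second transcript table only the step from Pspc1 to Rbm14 did so. That table listed the 8 genes at 1.06 to 67.9 TPM, each below its gene-table value in both libraries except Nudt21 in replicate 2, at 2.59 TPM.

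**Figure D2:**
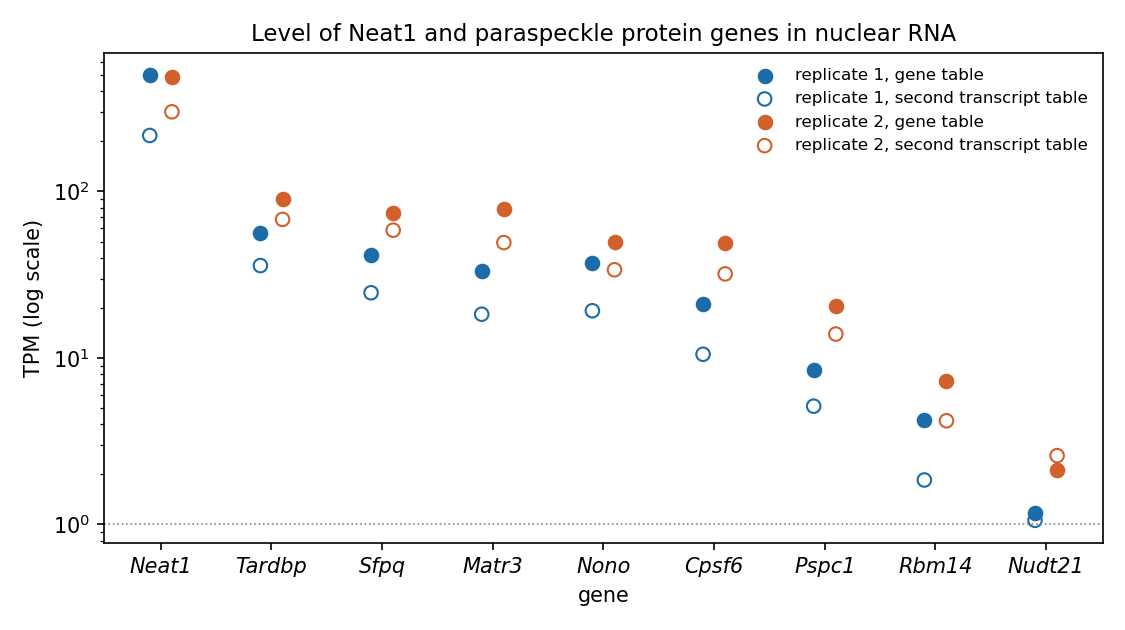
TPM (log axis) of the 9 genes in nuclear RNA, in order of mean TPM, with replicate 1 in blue and replicate 2 in orange. Filled points are the gene tables, open points the sums over the second transcript table, and the dotted line marks 1 TPM. Neat1 stands at 489 to 499 TPM in the gene tables, and the protein genes spread from 1.17 to 89.7 TPM.

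Among the DBHS genes, Sfpq and Nono were near each other and Pspc1 was lower. Within a library Sfpq stood 4.95 and 3.64 times above Pspc1, and Nono 4.41 and 2.42 times above it. Sfpq over Nono was 1.12 and 1.51. These ratios do not depend on the scaling of a library. Neat1 stood 12.0 times above Sfpq in replicate 1 and 6.56 times in replicate 2. Among detected protein-coding genes, Sfpq lay at the percentiles 91.3 and 94.3 and Nono at 90.0 and 90.6, while Pspc1 lay at 58.2 and 73.2 and Rbm14 at 36.3 and 40.7. Sfpq (ENSMUSG00000028820.13) lies on chromosome 4 from 127021324 to 127037013, plus strand. Nono (ENSMUSG00000031311.17) lies on chromosome X from 101429318 to 101448591, plus strand. Pspc1 (ENSMUSG00000021938.12) lies on chromosome 14 from 56720710 to 56778316, and Rbm14 (ENSMUSG00000006456.10) on chromosome 19 from 4800569 to 4811634, both on the minus strand. Of the 31-base words of Nono, 21.7% also occur in other genes, and Rbm14 shares 16.5% with the gene Gm21992, which overlaps it on the same strand and was assigned 130 and 102 counts. Sfpq is overlapped on its own strand by Gm12940, with 173 and 85.0 counts. The levels of these 3 genes depend on how the authors' tools divided shared reads.

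The 2 subunits of cleavage factor I differed widely in RNA level. Cpsf6, the larger subunit (ENSMUSG00000055531.12, chromosome 10, 117344673 to 117380015, minus strand), stood 18.1 and 23.2 times above Nudt21, the UGUA-binding subunit (ENSMUSG00000031754.10, chromosome 8, 94015496 to 94037031, minus strand). In the second transcript table the ratios were 9.94 and 12.3. Nudt21 had 156 and 171 counts and lay at the percentiles 2.62 and 6.26 of detected protein-coding genes, near the bottom of that group. Its counts could be split with copies: 13.8% of its 31-base words occur in other genes, among them the pseudogene Gm7488 with 31.3 and 9.17 counts. Cpsf7, the alternative large subunit, had 28.8 ± 9.62 TPM (SD, n = 2). The RNA of the nucleus says nothing of protein amounts.

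Isoforms of the protein genes were not all of coding type. The annotation marks some transcripts as retained intron, nonsense-mediated decay (NMD, spliced so that a stop codon lies early) or processed transcript (no open reading frame assigned). Each share is of the gene's TPM, and the medians beside it are over protein-coding genes that have such a transcript and a mean count of 10 or more. These genes were not matched to a member by their number of annotated transcripts of that type. Because these transcripts are short, their share of counts was lower than their share of TPM.

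Matr3 had the largest retained-intron share of the 8, from 5 annotated transcripts: 48.9% in replicate 1 and 66.4% in replicate 2, against medians of 23.4% and 29.7% over 6823 genes. It exceeded 84.8% and 89.6% of those genes. By counts the shares were 28.3% and 41.9%, against medians of 12.9% and 17.8%. Matr3-207, which is coding, led in replicate 1 with 29.6%, and the retained-intron Matr3-209 led in replicate 2 with 22.3%. Matr3-212, Matr3-203 and Matr3-216 had mean shares of 10% or more as well. Matr3 (ENSMUSG00000037236.16) lies on chromosome 18 from 35562138 to 35593835, plus strand, and 18.1% of its 31-base words occur in other genes. Another annotated gene, Gm36989, lies within its span on the same strand and had 308 and 566 counts.

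Tardbp was the member with much of its RNA on NMD transcripts. Its 10 annotated NMD transcripts took 40.6% and 43.7% of its TPM (mean 42.2% ± 2.12, SD, n = 2), against medians of 3.09% and 1.61% over 3393 genes, and it exceeded 93.2% and 93.9% of them. In the second transcript table the NMD share was 31.2% and 37.4%, against higher medians of 7.48% and 6.34%. By counts it was 18.9% and 20.4%, against medians of 1.28% and 0.538%. TDP-43 is known to limit its own mRNA through alternative splicing near the 3′ end. The leading transcript was Tardbp-204, which is coding, with 33.9% in replicate 1, and Tardbp-208, an NMD transcript, with 35.4% in replicate 2. Tardbp-204 was at 14.7% in replicate 2 and Tardbp-208 at 20.95% in replicate 1. The 1 retained-intron transcript was at 0 in the first table and at 15.99% and 9.61% in the second. Tardbp (ENSMUSG00000041459.15) lies on chromosome 4 from 148612382 to 148627019, minus strand, and Masp2, which overlaps it on the opposite strand, had 0 counts in both libraries.

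Among the DBHS genes, Sfpq has no retained-intron or NMD transcript in the annotation, and its 5 processed transcripts took 56.7% and 47.6% of its TPM, against medians of 3.98% and 3.02% over 5277 genes. They are 600 to 967 nt long where measured at above 5%, while the coding Sfpq-201 has 3465 nt. In the second transcript table the processed transcripts took 60.6% and 54.5%, against higher medians of 17.8% and 16.9%. By counts of the first table their share was 20.1% and 15.7%, against medians of 0.578% and 0.430%. Sfpq-204 held 22.3% and 27.8% of the TPM by itself, and the coding Sfpq-201 led with 43.3% and 52.4%. Nono had 35.8% and 38.7% on 4 retained-intron transcripts, against medians of 23.4% and 29.7%. Nono-204 (11.4% and 14.5%) and Nono-202 (10.9% and 9.17%) were the largest of them. Its coding Nono-201 led with 62.1% and 60.1%. By counts the retained-intron share of Nono was 17.5% and 19.1%, against medians of 12.9% and 17.8%. Pspc1 had 30.05% and 24.9% of its TPM on its 1 retained-intron transcript, Pspc1-203. This was above the TPM median in replicate 1 and below it in replicate 2. By counts these shares were 4.31% and 3.19%, below the count medians of 12.9% and 17.8% in both libraries. Pspc1-202 led in replicate 1 with 39.3% and Pspc1-201 in replicate 2 with 36.7%, both coding.

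Rbm14 and Nudt21 have only coding transcripts in the annotation. Rbm14-202 and Rbm14-201 were near equal, with 52.5% and 47.5% in replicate 1 and 49.3% and 50.7% in replicate 2. Nudt21-201 led with 47.9% and 77.3%, from 132 and 164 counts. Cpsf6 had 14.6% and 14.2% on its retained-intron transcript Cpsf6-205, below the median of all such genes in both libraries. Its NMD transcript had 11.8% in replicate 1 and 2.29% in replicate 2, from 59.0 and 11.8 counts, against medians of 3.09% and 1.61%. In the second transcript table its share was 6.51% and 0.579%, below the medians of 7.48% and 6.34%. By counts it was 1.49% and 0.252%, above the median of 1.28% in replicate 1 and below that of 0.538% in replicate 2. Cpsf6-201, which is coding, led with 37.2% and 46.3%.

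**Figure D3:**
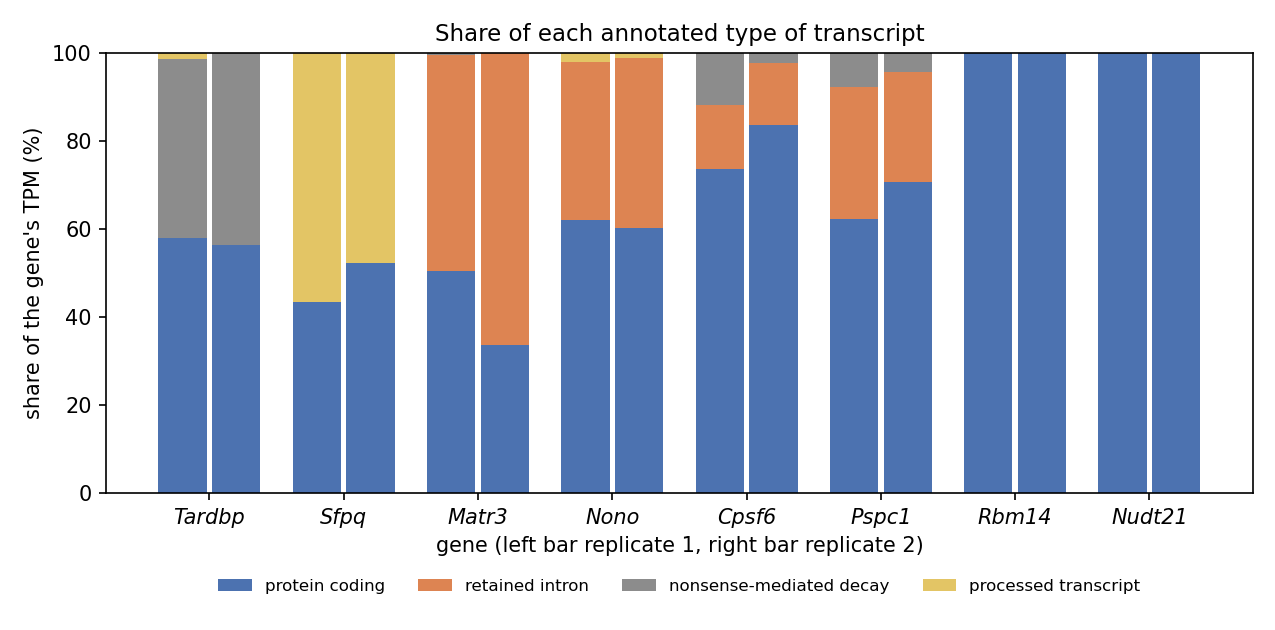
Share of each protein gene's TPM, in percent, on annotated coding (blue), retained-intron (orange), NMD (grey) and processed (yellow) transcripts, with replicate 1 as the left bar and replicate 2 as the right bar. Tardbp has 40.6% and 43.7% on NMD transcripts, Matr3 48.9% and 66.4% on retained-intron transcripts, and Rbm14 and Nudt21 have coding transcripts only.

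The libraries differed in most of the members beyond counting error. By the exact two-sided binomial test on TMM-scaled counts with Benjamini-Hochberg adjustment over all genes, 8 of 9 members differed, beside 59.3% of 14698 genes tested. With only genes of a mean count of 50 or more, 8 members differed, beside 7593 of 11129 genes. In replicate 2, 5 members were higher and 3 lower, beside 29.3% and 30.0% of all 14698 genes. This test compares the libraries and not conditions, and its p-values measure counting error alone. The common coefficient of variation of all genes, fitted to these 2 libraries, was 0.335. It does not separate biological from technical spread, since the libraries also differ in RNA input.

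Relative to the median gene, the members higher in replicate 2 were Pspc1 with a log2 ratio of 0.87 (95% exact interval 0.74 to 1.01), Cpsf6 with 0.82 (0.76 to 0.88), Nudt21 with 0.71 (0.39 to 1.03), Sfpq with 0.38 (0.31 to 0.45) and Matr3 with 0.31 (0.23 to 0.39). Those lower were Neat1 with −0.69, Nono with −0.26 (−0.34 to −0.17) and Tardbp with −0.11 (−0.17 to −0.05). On the TPM scales Tardbp had a ratio above 0, and on that of the second transcript table Nono did. Rbm14 did not pass the test, with 0.11 (−0.06 to 0.29, exact binomial test, adjusted p = 0.236). Among the DBHS genes, Sfpq and Pspc1 were thus higher and Nono was lower in replicate 2 on TMM-scaled counts.

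GC content moved with these differences over all genes. The median ratio was 0.73 in the GC decile with the lowest GC content and −0.50 in the decile with the highest. Pspc1, Cpsf6, Nudt21, Matr3 and Tardbp, with a GC content of 41.0% to 43.3%, lie in a decile whose median ratio was 0.32. Matr3 was near that value, Tardbp was below it and the other 3 were above it. Neat1 and Nono, at 48.2% and 47.8%, lie in a decile with a median of 0.04, and both were below it. Sfpq, at 46.2%, lies in a decile with a median of 0.13 and was above it. Rbm14, at 56.3%, lies in a decile with a median of −0.34 and was above it. On the same TMM-scaled counts the 6 macrophage markers were all lower in replicate 2, beside 30.0% of all genes, with a median ratio of −0.73. By TPM their sum was 2289 in replicate 1 and 2424 in replicate 2. The part of GC content, RNA input or cell make-up in the members' ratios was not tested.

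**Figure D4:**
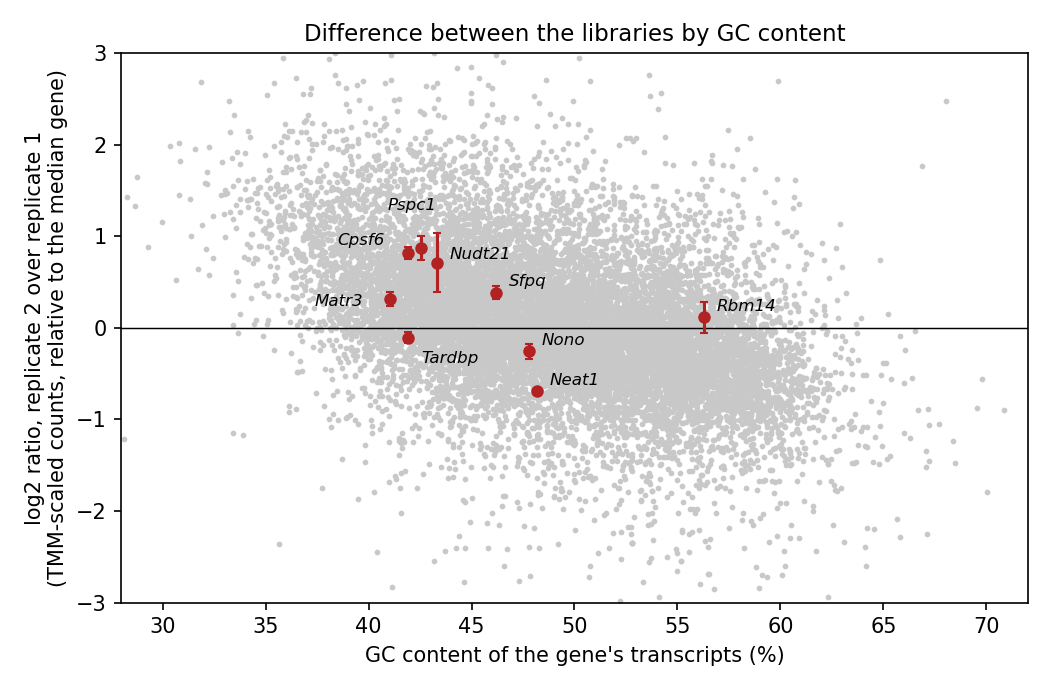
Log2 ratio of replicate 2 over replicate 1 (TMM-scaled counts, relative to the median gene) against the GC content of a gene's transcripts in percent. Grey points are the 14698 genes tested, of which 100 lie outside the axes, and red points are the 9 members with 95% exact intervals of counting error. Neat1 is at −0.69 and Pspc1 at 0.87.

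Most other genes reported for paraspeckle proteins were detected too. Of 33 such genes, 28 reached 1 TPM in both libraries, beside 39.6% of all protein-coding genes. Their median over all 33 was 14.2 ± 7.44 TPM (SD, n = 2). The highest were Hnrnph1 (95.9 ± 52.1), Hnrnpk, which counters polyadenylation of the short Neat1 (94.8 ± 37.3), and Hnrnpm (85.2 ± 42.1). Zc3h6, Ahdc1 and Runx3 were below 1 TPM in both libraries, and Fign and Celf6 had 0 counts, which allows up to 3 counts (a CPM of 0.105 and 0.177). Of the 31 genes with enough counts, 13 were higher and 13 lower in replicate 2, beside 29.3% and 30.0% of all genes tested. All 16 further genes of the 3′ end machinery were at 1 TPM or more, beside the same 39.6%, with a median of 11.4 ± 3.01 TPM, led by the poly(A) polymerase Papola (41.9 ± 14.5), the poly(A)-binding Pabpn1 (30.8 ± 0.233) and the cleavage factor II gene Pcf11 (26.2 ± 0.488). Among these, 5 were higher and 7 lower in replicate 2, beside the same 29.3% and 30.0%.

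Neat1 is also known as part of a DNA-sensing complex with Hexim1 and the DNA-dependent protein kinase. Hexim1 had 7.44 ± 0.643 TPM (SD, n = 2). The kinase genes were low: Prkdc had 0.915 ± 0.0212 TPM, its Ku partner Xrcc6 1.03 ± 0.106 TPM, and Xrcc5 1 count in each library. Slc7a2, whose gene gives rise to an RNA known to be held in paraspeckles, had 8.53 and 9.11 TPM. These are levels of the whole gene and do not separate that RNA from the mRNA.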

How the data were processed

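Nuclear RNA was measured in 2 replicates of 1 group. Per the file headers, the authors deposited a gene table and a transcript table per library, with expected (estimated, not always whole) counts, TPM, posterior mean TPM and credibility bounds. The authors' second transcript table, made directly from reads, held estimated counts and TPM. Which tools made them, and with which strand setting, is not given in the sources used here. Per the labels the build was mm10, with GENCODE M21 per the deposited notes. Rows that name no mouse gene (26345, with 518493 and 54059 counts) were left out.

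The members and lists were chosen with earlier results of these data known. All members and all Neat1 transcripts are named, with, of each other member, the leading transcript per library and retained-intron transcripts of a mean share of 10% or more. Of the paraspeckle, 3′ end and DNA-sensing lists, the 3 highest genes and those under 1 TPM in both libraries are named, and every gene of lists of 6 or fewer. Cell type markers are summed, and Pecam1 and Cd3d were chosen after their values were seen.

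Genes whose mean count reached 10 were compared between libraries by an exact two-sided binomial test on rounded expected counts given TMM-scaled library sizes (edgeR 4.0.16, R 4.3.3; prior count 0.5), Benjamini-Hochberg adjusted at 0.05. The common coefficient of variation came from edgeR. The script was checked on simulated data. Intervals and floors cover counting error only and treat reads as independent, although PCR copies were not marked. Whether the replicates came from separate animals is not stated. Shared sequence was counted as 31-base words of transcripts. Alternatives were other scalings (library size, DESeq2 1.42.0), filters, pseudocounts, the second transcript table, posterior means and leaving out each replicate. Python 3.11.15, pandas 2.3.3 and scipy 1.17.1 were used.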

Additional observations from a re-analysis of the deposited data

How the results depend on the processing

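The mean Neat1 level of 494 TPM became 1800 TPM after rescaling without mitochondrial RNA and RNA grouped as short structural. It was 259 TPM in the second transcript table, 477 TPM by posterior mean, and 488.52 to 498.65 TPM without each replicate in turn. The long share of 6.56% became 5.95% in the second transcript table and 34.8% by expected counts, and 6.36% to 6.75% without each replicate. The listed paraspeckle genes detected numbered 28 in the gene tables, 29 at 0.5 TPM, 21 at 5 TPM, 27 in the second transcript table and 28 in each replicate alone. Of the members, 8 differed between libraries with TMM scaling, DESeq2 size factors and both other filters, and 7 with library size, by which Nono (exact binomial test, adjusted p = 0.0839) and Tardbp (0.0606) did not pass and Rbm14 (0.00259) did. Relative to the median gene, the ratio of Nono turned to 0.0532 in the second transcript table, and that of Tardbp to 0.23 (TPM + 1), 0.0529 (TPM + 0.1) and 0.17 (second transcript table); the cause was not tested. The median of all genes itself was 0.01 with TMM, 0.17 with library size, 0.43 with TPM + 1 and 0.73 in the second transcript table. No paired analysis was possible because there is only 1 group. A difference between libraries has no value without either replicate. With 2 libraries, depth limits the low members most: Nudt21 rests on 156 and 171 counts.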
